A study of Mus musculus with 6 samples.

Results

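H3K27ac, the acetylated histone H3 of active promoters and enhancers, was examined at the loci of Jun, Junb, Fos and Fosl1, 4 genes that encode subunits of the transcription factor AP-1. The cells were C2C12, an established mouse myoblast line that fuses into myotubes when serum is reduced. The loci were taken as fixed mm9 windows: Jun on chromosome 4 from 94690000 to 94745000, Junb on chromosome 8 from 87485000 to 87520000, Fos on chromosome 12 from 86790000 to 86845000, and Fosl1 on chromosome 19 from 5435000 to 5470000. Peaks with at least 1 bp in a window numbered 34 of 57101 in proliferating myoblasts, 34 of 89717 after 36 h of differentiation and 43 of 97144 after 72 h. Merging overlapping peaks of the 3 lists gave 42 regions in the windows, out of 112926 in the genome.

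The series concerns TAp63, a p63 isoform that carries a transactivation domain, in muscle cell formation. It holds an H3K27ac library and an input library per stage, all of C2C12 cells with no genetic change or agent named in their labels, and each ChIP library was made from DNA of 4 pooled assays. Each stage is thus 1 library, the spread between cultures was not measured, and no p-value is given. All intervals below cover counting error only.

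AP-1 is a dimer that binds DNA through a basic region and a leucine zipper. Jun proteins pair with each other or with Fos proteins, whereas Fos proteins need a Jun partner to bind. The genes are known as early responders to growth factors, and Jun is known to oppose MyoD, the master regulator of myogenic differentiation, in cycling myoblasts. Jun encodes the strongest activator of the Jun group, and Junb a weaker activator that can restrain Jun. Fos encodes a potent activator made in short bursts, and Fosl1 encodes Fra-1, which lacks the transactivation domain of Fos and lasts longer in growing cells.

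The promoters of these genes are shown because the serum and stress signals known to act on AP-1 genes end at short sites within them. The 250 bases before the annotated start were taken from RefSeq on build GRCm38.p6, which held an entry for Jun, Junb and Fos. These positions are on another build than the peaks and were not converted, so a promoter was not placed under a peak. Capitals mark matches, on either strand, to 7 motifs: TGANTCA (an AP-1 site), TGACNTCA (a CRE-type site), TGACGT (a CRE core), CAGCTG (an E-box of the kind that myogenic factors bind), the CCAAT box, the core promoter motif TATAAA and the CArG box. A CRE core also counts as part of a CRE-type site where the N is G.
Jun, chr4:95052223-95052472, minus strand: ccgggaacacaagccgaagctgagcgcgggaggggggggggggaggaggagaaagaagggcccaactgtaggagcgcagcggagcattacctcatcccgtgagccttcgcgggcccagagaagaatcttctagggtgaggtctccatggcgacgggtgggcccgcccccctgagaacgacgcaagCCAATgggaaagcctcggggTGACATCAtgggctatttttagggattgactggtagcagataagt
Junb, chr8:84978749-84978998, minus strand: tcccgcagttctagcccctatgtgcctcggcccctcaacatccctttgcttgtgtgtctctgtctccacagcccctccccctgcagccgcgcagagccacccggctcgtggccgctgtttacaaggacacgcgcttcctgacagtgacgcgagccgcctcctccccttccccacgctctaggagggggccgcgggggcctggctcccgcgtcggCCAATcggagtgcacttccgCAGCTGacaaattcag
Fos, chr12:85473640-85473889, plus strand: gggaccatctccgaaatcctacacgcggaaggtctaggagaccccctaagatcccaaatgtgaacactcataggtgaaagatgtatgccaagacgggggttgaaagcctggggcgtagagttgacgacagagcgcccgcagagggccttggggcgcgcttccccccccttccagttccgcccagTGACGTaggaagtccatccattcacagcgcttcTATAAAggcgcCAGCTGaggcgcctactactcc

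The Jun promoter held TGACATCA, a CRE-type site, at 45 to 38 bases before the start, a match found in 7.49% of 32851 promoter windows of this length. A CCAAT box stood at 65 to 61 bases in Jun and at 36 to 32 bases in Junb, and 33.8% of all windows held one. CAGCTG occurred 16 to 11 bases before the Junb start and 22 to 17 bases before the Fos start, and in 13.0% of all windows. Fos also held TGACGT at 66 to 61 bases and TATAAA at 33 to 28 bases, found in 6.47% and 12.4% of windows. None of the 3 stretches held TGANTCA (6.75% of windows) or a CArG box (1.47%), which says only that these letters are not in this stretch. All 3 were richer in G and C than the median window (52.4%), at 61.2% in Jun, 66.4% in Junb and 58.4% in Fos.

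H3K27ac peaks of proliferating cells covered 30426 bp in the 4 windows together, those of 36 h 31960 bp and those of 72 h 37626 bp. Relative to proliferation this was 1.05 times and 1.24 times, while the length under all peaks of the genome reached 1.79 and 2.03 times. The windows held 0.0971% of the genome's covered length in proliferation and 0.0571% and 0.0591% at 36 h and 72 h. The loci differed in direction, as the plot of covered length and peak number shows.

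**Figure D1:**
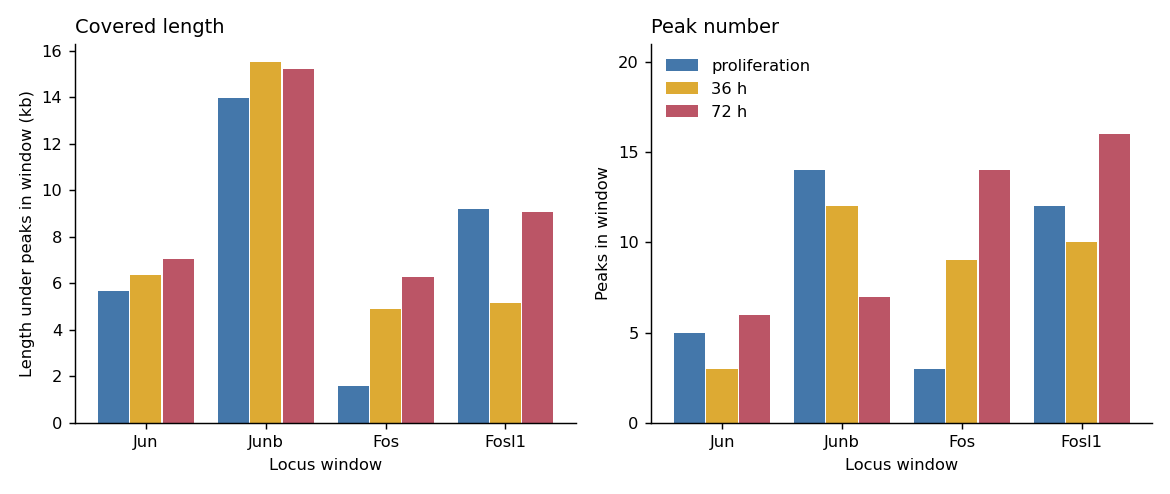
Length under H3K27ac peaks in kb (left) and number of peaks (right) in the Jun, Junb, Fos and Fosl1 windows, with 1 bar for each stage and no error bars because each stage is 1 library. Fos covered 1581 bp in proliferation and 6266 bp at 72 h, and Fosl1 was lowest at 36 h with 5168 bp.

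At Jun, peaks covered 5674 bp before differentiation, 6359 bp at 36 h and 7065 bp at 72 h. The ratios of 1.12 and 1.25 to proliferation lay below 1.5 times, the fold taken here as a change. At Junb, 13983 bp, 15524 bp and 15241 bp were covered at the 3 stages, with ratios of 1.11 and 1.09. Junb was the most densely acetylated of the 4 windows, with 40.0% of its length under proliferation peaks.

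At Fos, the covered 1581 bp of proliferation became 4909 bp at 36 h and 6266 bp at 72 h, or 3.10 and 3.96 times. Fosl1 went the other way, with 9188 bp in proliferation, 5168 bp at 36 h (0.562 times) and 9054 bp at 72 h (0.985 times). From 36 h to 72 h its covered length was 1.75 times, compared with 1.28 at Fos, 1.11 at Jun and 0.982 at Junb.

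Peak number alone gave another picture at Junb, where 14 peaks in proliferation became 12 at 36 h and 7 at 72 h. The mean peak width there was 999 bp, 1294 bp and 2177 bp, so fewer and wider peaks covered a similar length. Jun had 5, 3 and 6 peaks, Fos 3, 9 and 14, and Fosl1 12, 10 and 16. The 72 h numbers rested in part on weak peaks. With a −log10 q of at least 5, Jun kept 3, 3 and 2 peaks, so that 72 h was no longer its highest stage. The same limit left 3, 7 and 9 peaks at Fos and 8, 7 and 10 at Fosl1. The Fosl1 numbers also count pieces of broad regions. Its region from 5444010 to 5446700 held 1 peak in proliferation, 4 at 36 h and 6 at 72 h. The one from 5447272 to 5450350 held 1, 2 and 2. Their summit fragments at 72 h were 0.427 and 0.470 times proliferation at equal depth, so more peaks there did not mean a higher level.

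These ratios were set beside all fixed tiles of the genome of the same length that held peaks at both stages. Among 55 kb tiles, 50.9% exceeded 1.5 times proliferation at 36 h and 55.3% at 72 h, and 11.1% and 7.89% lay under the inverse of 1.5. Of the windows of this length, Fos was past 1.5 times at both stages and Jun at neither. Among 35 kb tiles, the length of the Junb and Fosl1 windows, 48.8% and 52.7% exceeded 1.5 times, while 11.8% and 8.59% lay under the inverse. Fosl1 at 36 h was under the inverse of 1.5, and its ratio was above that of 9.02% of tiles. In a window 10 kb wider on each side the Fosl1 ratio at 36 h was 0.738, no longer under the inverse of 1.5. The Fos ratios were above those of 81.2% of tiles at 36 h and 84.2% at 72 h.

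The windows were laid around genes and the tiles were not, and 3 of the 4 windows started high. In proliferation, Junb covered more than 99.8% of tiles with a peak at any stage, Fosl1 more than 99%, Jun more than 94.4% and Fos more than 69.4%. That set includes tiles without a proliferation peak, which raises these shares. Of its 20277 tiles of 55 kb, 13826 had peaks in both proliferation and 72 h. Tiles with at least 10% of their length under proliferation peaks, a subset taken after the values were seen, had median ratios of 1.18 and 1.24 (35 kb) and 1.25 and 1.27 (55 kb) at 36 h and 72 h. Within that subset the Jun ratios exceeded those of 41.6% and 48.2% of tiles, the Junb ratios 44.5% and 38.0%, and the Fosl1 ratios 10.2% and 29.0%. Fos, with 2.87% of its window under proliferation peaks, fell outside the subset. Its ratios were not compared with those of tiles of a like low start.

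**Figure D2:**
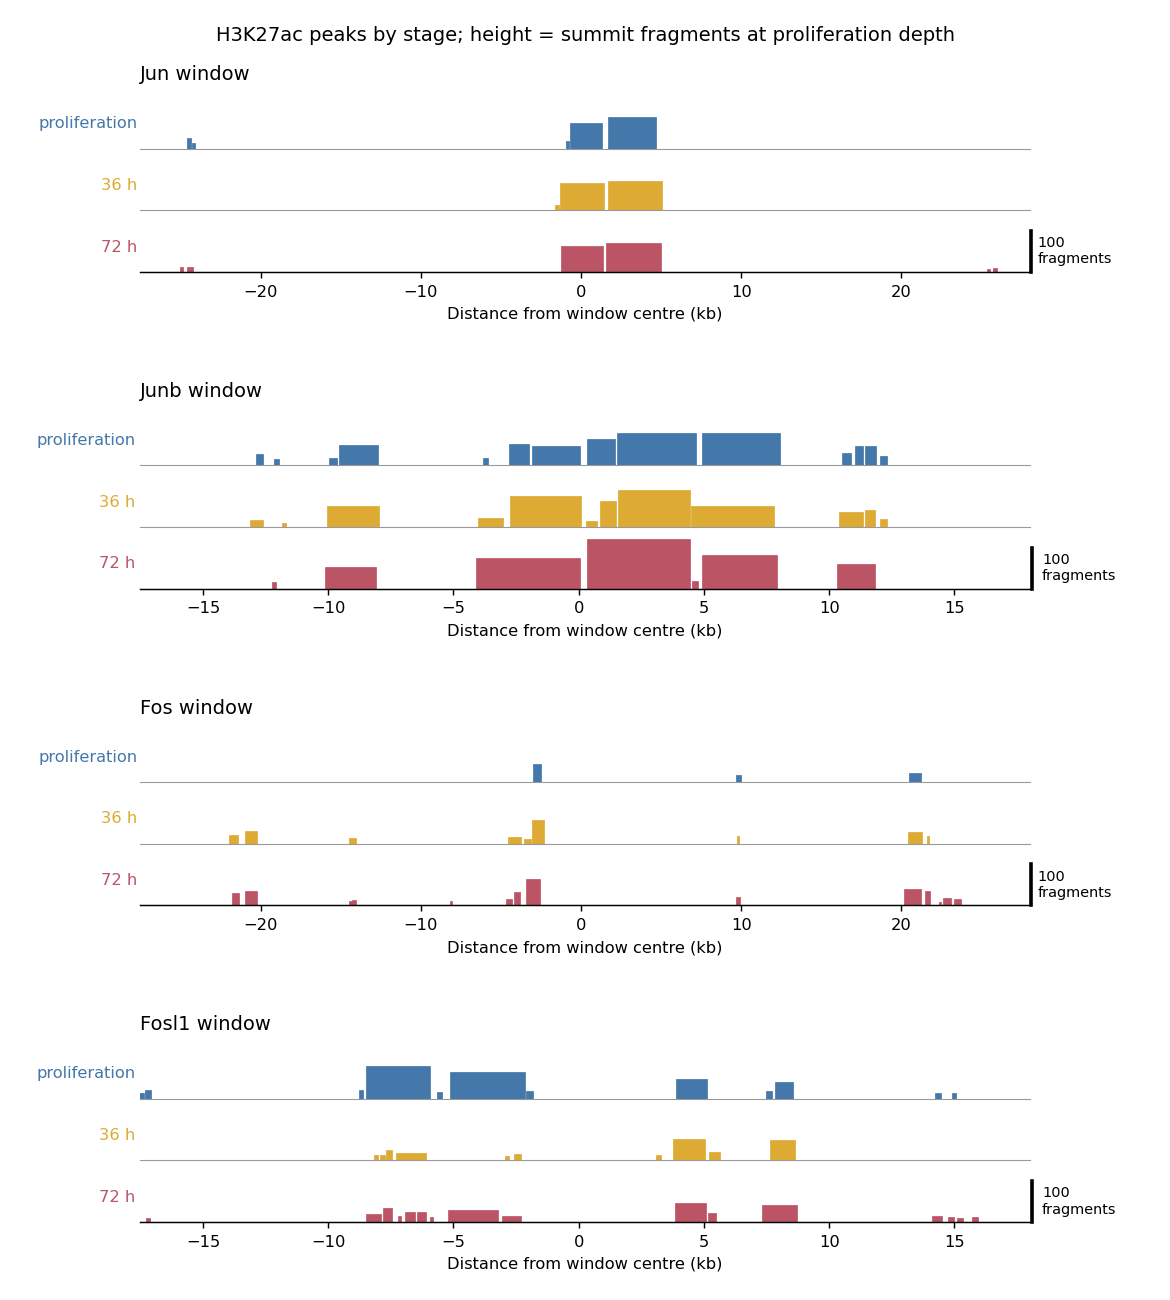
H3K27ac peaks of each stage along the 4 windows, with distance from the window centre in kb on the horizontal axis, the width of each box the called peak, and its height the summit fragments divided by the relative ChIP depth (scale bar of 100 fragments). Jun holds a pair of broad peaks at every stage, Junb a dense block, Fos scattered peaks that are more numerous at 36 h and 72 h, and Fosl1 a pair of broad proliferation peaks left of the centre that are broken up at 36 h.

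By position, 13 of the 42 regions (31.0%) had a peak at all 3 stages, compared with 25.6% of all regions. Regions that had peaks at both later stages but lacked one in proliferation numbered 6 (14.3%, against 22.3%), 5 of them at Fos and 1 at Fosl1. The Fos number was 3 with a −log10 q of at least 5, with a fold of at least 5 or with lists of equal number, and 2 with windows 10 kb narrower on each side or with peaks joined across 1 kb. Regions with a peak only in proliferation numbered 4 (9.52%, against 6.70%), all at Fosl1. Lists of equal number gave 9 of them, of which 6 were at Fosl1, narrower windows 2 and joined peaks 0. A further 2 regions, both at Junb, had peaks in proliferation and 36 h (against 1.70% of all regions), and 5 had peaks in proliferation and 72 h (against 3.95%), of which 3 were at Fosl1. Single-stage regions of differentiation were 3 at 36 h (against 15.9%) and 9 at 72 h (against 23.9%).

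Levels were compared through summit fragments, the number of ChIP fragments stacked at a peak's summit, recovered from the deposited fold and p. They were divided by the relative ChIP depth, 1.2 at 36 h and 1.1 at 72 h against proliferation, and a region took its highest summit. Of 30823 regions with peaks in proliferation and 36 h, 14.2% were over 1.5 times higher at 36 h and 20.2% under the inverse. In the windows 0 of 15 were higher and 3 lower. Of 33371 regions with peaks in proliferation and 72 h, 22.0% were higher at 72 h and 13.0% lower, against 3 and 4 of 18 in the windows. From 36 h to 72 h, 21.4% of 54072 regions were higher and 5.24% lower, against 3 and 0 of 19 in the windows.

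**Figure D3:**
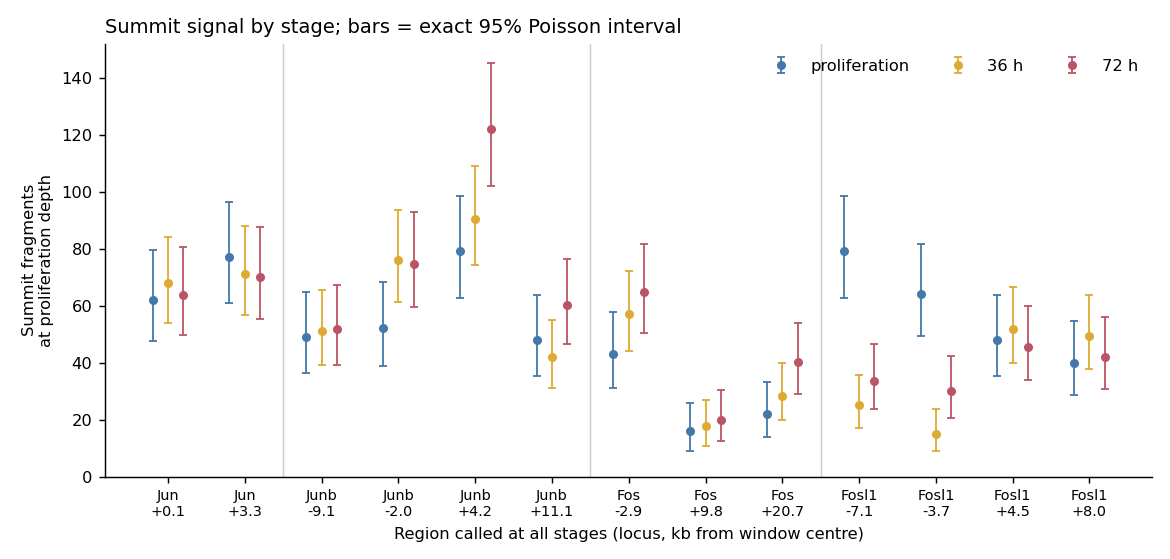
Summit fragments at the depth of the proliferation library (vertical axis) for the 13 regions called at all stages, labelled by locus and distance from the window centre in kb. Points are single libraries and bars exact 95% Poisson intervals, which overlap between stages at both Jun regions, while the intervals of proliferation lie above those of 36 h and 72 h at the Fosl1 regions at -7.1 and -3.7 kb.

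Jun had a pair of adjoining broad regions at the window centre that kept a like level at each stage. The first, from 94716190 to 94718931, had 62.0 fragments in proliferation (95% Poisson interval 47.5 to 79.5), 67.8 at 36 h (53.8 to 84.2) and 63.8 at 72 h (49.7 to 80.6) at equal depth. The second, from 94719077 to 94722525, had 77.0 (60.8 to 96.2), 71.1 (56.8 to 87.9) and 70.1 (55.3 to 87.7). Both stages overlapped proliferation in each region, with 36 h and 72 h ratios of 1.09 and 1.03 in the first and 0.923 and 0.911 in the second. The exact 95% intervals of these ratios ran from 0.655 at the lowest to 1.55 at the highest, so changes within that range were not detectable at this depth. With background subtracted and the median signal of all-stage regions taken as 1, the ratios were 1.08 and 0.859 in the first region. In the second they were 0.934 and 0.772.

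The deposited fold of the second Jun region was 10.6 in proliferation, 20.1 at 36 h and 10.3 at 72 h, although its fragments differed little. Its local background, the level expected without enrichment, was recovered as 4, 2 and 4 at the 3 stages. These values are in units of fragments multiplied by the scale factor of the library (0.673, 0.698 and 0.657), not in fragments. Folds depend on this background and are used here only for rank within a list. Within its own list the peak stood above 88.3%, 95.6% and 80.6% of peaks.

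Outside this pair, the Jun window held only weak peaks. Near its left edge, the region from 94692905 to 94693430 had 26.0 fragments in proliferation, no peak at 36 h and 12.8 fragments at 72 h at equal depth. The stronger of its proliferation peaks was expected to give 32.2 fragments at 36 h, where 15 sufficed for a call, and the nearest 36 h peak lay 22.7 kb away. Local background at this peak stood at 2.97 times the level common across the genome in that library, and its part in the call was not tested. The other 4 regions, 1 at 36 h only and 3 at 72 h only, had 8.20 to 12.8 fragments at equal depth.

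Junb carried a block of acetylation across its window at all stages. The widest region of the 4 windows, 7759 bp from 87502781 to 87510539, had 79.0 fragments in proliferation (62.5 to 98.5), 90.3 at 36 h (74.1 to 109) and 122 at 72 h (102 to 145). It was highest at 72 h, at 1.54 times proliferation (exact 95% interval 1.16 to 2.07), above the ratio of 80% of regions. With background subtracted and the median signal of all-stage regions taken as 1 it was 1.35 times, below the fold taken as a change. Its strongest 72 h peak had a deposited fold of 30.6, above 99.4% of that list, the highest rank reached in these windows.

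Beside it, the Junb region from 87498381 to 87502581 had 52 fragments in proliferation, 76.1 at 36 h and 74.7 at 72 h. The ratios to proliferation were 1.46 (1.03 to 2.10) at 36 h and 1.44 (1 to 2.07) at 72 h. The interval came close to 1 at 36 h and reached 1 at 72 h. With background subtracted and the median signal of all-stage regions taken as 1, the ratios were 1.49 and 1.29. In proliferation this region was broken into 3 peaks, and at 72 h it was a single peak of 4172 bp. The remaining pair of all-stage regions at Junb, from 87492368 and from 87512828, had ratios of 0.871 to 1.25 against proliferation, with intervals that included 1.

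The regions of Junb that were not called at every stage were small, at 147 to 539 bp. The largest of them, from 87489356 to 87489894, had 27 fragments in proliferation and 17.6 at 36 h and had no peak at 72 h. Of the bases under proliferation peaks at Junb, 95% were also under peaks at 36 h and 93.2% at 72 h. At Jun these shares were 92.0% and 97.7%.

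Fos had 1 strong region and gained peaks at a distance on both sides. The strong region, from 86813931 to 86815203, had 43.0 fragments in proliferation (31.1 to 57.9), 56.9 at 36 h (44.2 to 72.1) and 64.7 at 72 h (50.5 to 81.6). The order of the levels followed the stages, and the interval of the 72 h ratio of 1.5 (1.02 to 2.25) reached close to 1 while that of the 36 h ratio of 1.32 (0.890 to 1.99) included it. The 72 h ratio was 1.34 with background and median signal taken into account. Its peak stood above 86.2%, 96.5% and 97.3% of the peaks of the 3 lists.

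The other all-stage regions of Fos lay to the right. The one from 86837684 to 86838782 had 22, 28.4 and 40.1 fragments, 1.82 times at 72 h (1.07 to 3.19), a ratio above that of 88.5% of regions. With background and median signal taken into account, this 72 h ratio was 1.55. The one from 86827148 to 86827490 had 16.0, 17.6 and 20.0, with intervals that overlapped throughout.

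Of the 5 Fos regions called at 36 h and 72 h and not in proliferation, 4 ranked in the upper part of a later list. The region from 86796517 to 86797297 had 31.0 fragments at 36 h and 34.6 at 72 h, and its peaks stood above 84.7% and 86.2% of their lists. Its 36 h peak was expected to give 29.9 and its 72 h peak 29.4 fragments in proliferation, where 18 sufficed, with 17.2 kb to the closest peak of proliferation. It was the only gained region of the 4 windows with no proliferation peak within 1 kb of a peak strong enough for a 99% chance of a call. At the stricter chance tried as an alternative, its peaks no longer met that requirement and 0 such regions were left.

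A neighbouring Fos region, from 86795552 to 86796151, had 20.1 fragments at 36 h and 30.1 at 72 h. Closer to the centre, the region from 86812829 to 86813744 had 15.1 and 32.8 fragments, 2.18 times from 36 h to 72 h, above the ratio of 96.1% of regions. The region from 86838969 to 86839310 had 17.6 and 34.6 fragments, 1.97 times. These last regions adjoined all-stage regions of Fos and were higher at 72 h than at 36 h.

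Over the whole Fos window, all-stage regions included, 2802 bp were under peaks at both later stages and not in proliferation, compared with 1324 bp under peaks at all stages. Of the proliferation bases at Fos, 87.6% stayed under peaks at 36 h and 92.3% at 72 h. Of the bases under peaks at 36 h and 72 h, 28.2% and 23.3% had been under proliferation peaks. The median local background of Fos peaks was 1.02, 1 and 1 times the genome background at the 3 stages, but single regions differed. The proliferation peak of the strong region was called against 1.98 times the genome background, and its peaks at 36 h and 72 h against 1. The all-stage region whose proliferation peak starts at 86837943 was called against 1, 1.6 and 1.85 times. The part of background in the Fos values was not tested. The other 4 regions, called at 72 h only, had 9.11 to 17.3 fragments. A call in proliferation took 18 at the 95% quantile of background there, and fewer where background was lower. The Fos proliferation peak from 86827148 was called with 16, so some of these 4 regions may have been callable at their 72 h level.

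At Fosl1, a pair of broad proliferation regions was much lower in differentiation. The region from 5447272 to 5450350, the widest of this window, had 64.0 fragments in proliferation (49.3 to 81.7), 15.1 at 36 h (8.92 to 23.8) and 30.1 at 72 h (20.7 to 42.2). The intervals of proliferation and of the later stages did not overlap, and the ratios were 0.235 (exact 95% interval 0.131 to 0.402) at 36 h and 0.470 (0.299 to 0.726) at 72 h. Of all regions with both peaks, 0.140% had a lower ratio at 36 h and 2.81% at 72 h.

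The peak structure of that Fosl1 region changed with its level. In proliferation 1 peak of 2986 bp covered it, standing above 97.4% of the list. At 36 h, 2 peaks with 476 bp in all remained, and at 72 h 2 peaks covered 2786 bp. From 36 h to 72 h the fragments of the highest summits were 2 times (1.09 to 3.77), above the ratio of 93.6% of regions. These summits lay apart, at 5448058 in proliferation, 5450046 at 36 h and 5448240 at 72 h. The ratios of this region that involve 36 h thus compare different places. Where the 36 h peaks lay, the 72 h summit at 5449730 had 16 fragments before scaling, against 18 at 36 h.

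The adjoining Fosl1 region from 5444010 to 5446700, singled out after its values were seen, had 79.0 fragments in proliferation (62.5 to 98.5), 25.1 at 36 h (16.9 to 35.8) and 33.7 at 72 h (23.7 to 46.5). The later stages again lay below proliferation without overlap, at 0.318 (0.201 to 0.489) and 0.427 (0.281 to 0.638) times. Lower ratios were found at 0.944% and 1.77% of all regions. Its local background was 3 in proliferation, 1.25 at 36 h and 1.76 at 72 h, in the scaled unit given for Jun. With background subtracted and the ratio divided by the median over all-stage regions, the ratios were 0.306 and 0.356. For the region from 5447272 the same calculation gave 0.213 and 0.395.

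The 4 regions called in proliferation only lay at and around these peaks or at the window edge. The region from 5443714 to 5443901 had 22 fragments and a fold above 59.9% of the list. The region from 5446836 to 5447034 had 17 and the one from 5450395 to 5450668 had 18, and each of these 3 flanked one of the broad regions within 1 kb. The region from 5434864 to 5435145 had 13 and reached beyond the window. With 13 to 22 fragments they were among the weaker peaks of the window.

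The right side of the Fosl1 window differed from the left. The region from 5456277 to 5457635 had 48.0, 51.9 and 45.5 fragments at the 3 stages, and the one from 5459829 to 5461223 had 40.0, 49.4 and 41.9. Their ratios of 0.949 to 1.23 had intervals that included 1. Beside the first, the region from 5457642 to 5458126 had peaks at 36 h (20.1 fragments) and 72 h (22.8) and none in proliferation. Of the bases under proliferation peaks at Fosl1, 46.5% were under peaks at 36 h and 78.3% at 72 h, the lowest shares of the 4 windows.

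Gene order bears on how these windows are read. In the RefSeq gene table of GRCm38.p6, the nearest protein-coding neighbours are Prdx2 and Hook2 for Junb, AI837181 and Ccdc85b for Fosl1, Tmed10 and Jdp2 for Fos, and Mysm1 and Fggy for Jun. Jdp2 and the next gene, Batf, encode AP-1 family proteins as well. No gene was placed in mm9, so a peak was not assigned to a member or its neighbour.

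**Figure D4:**
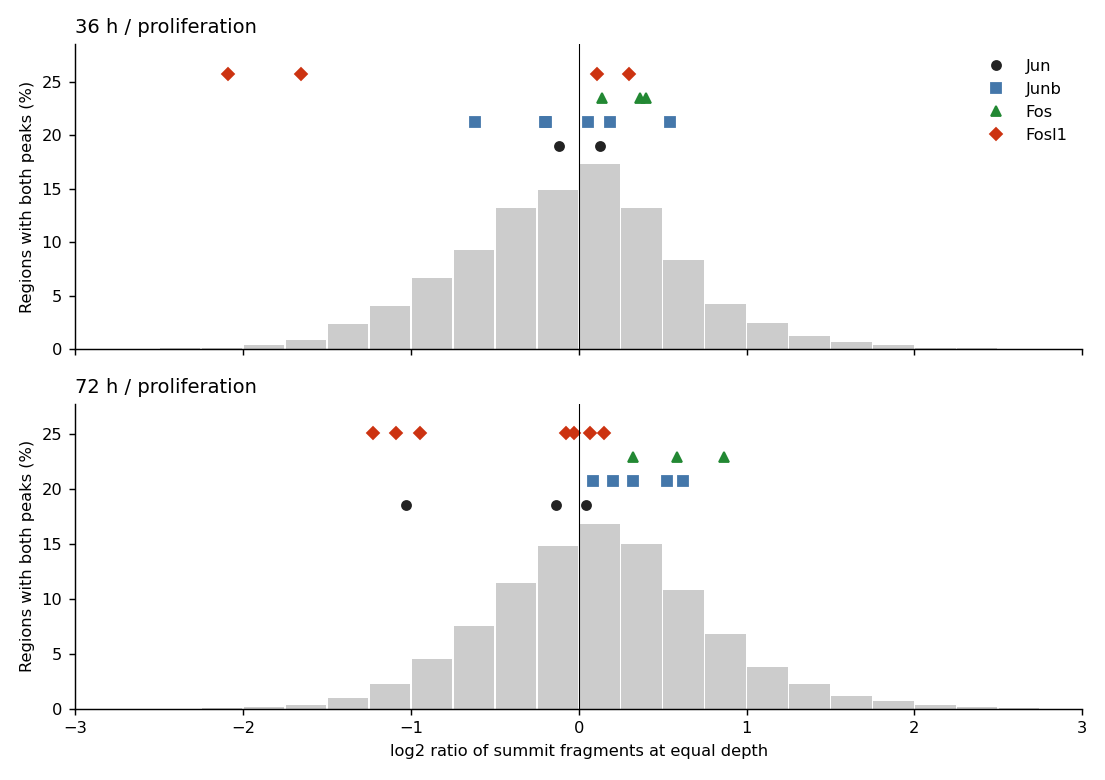
Distribution of the log2 ratio of summit fragments at equal depth, 36 h (top) and 72 h (bottom) against proliferation, over all regions with both peaks (grey bars, percent of regions per bin). Symbols mark the regions of the 4 windows at arbitrary height. The Fosl1 regions with ratios of 0.235 and 0.318 stand at the left end at 36 h, and Fos regions lie to the right of 0 in both panels.

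Calls near the threshold were set apart by asking which peaks were strong enough that a call in the other library had a chance of 99% or more. Of 22 such proliferation peaks, 1 had no 36 h peak within 1 kb (5.62% over all peaks), the Jun peak near the window edge, and of 23, 0 were missing at 72 h (3.51%). Of 13 peaks of 36 h and 13 of 72 h that were detectable in proliferation, 1 each was missing there (17.3% and 20.1%), at the same Fos region. Of 18 peaks of 36 h, 0 were missing at 72 h (1.67%), and of 19 peaks of 72 h, 0 were missing at 36 h (3.01%). At Fosl1 no detectable peak was missing at any stage. The pair of lowered regions kept peaks in each list. Any peak within 1 kb counted as a counterpart, also for the proliferation-only region from 5443714.

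The median local background moved with stage in 3 of the windows. The median over the peaks of a window was 2.97, 1.60 and 1.04 times the genome background at Jun for proliferation, 36 h and 72 h. It was 2.25, 1.29 and 1.49 times at Junb and 1.93, 1 and 1.22 times at Fosl1. A higher background raises the fragments needed for a call in proliferation, and its part in the peak widths and covered lengths was not tested.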

How the data were processed

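Per the submitters' processing notes, BWA, MACS2 and deepTools were used on build mm9, with no version or setting given in the sources used here. The authors deposited 1 narrowPeak list for each H3K27ac library, with a fold ratio of ChIP over background, the −log10 of p and of q at each summit, a summit offset, and a score that was not analysed. Peaks were called per library, per the peak names in the deposited files. Input libraries entered only through the recovered background.

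Total read counts were not used. Whole summit fragments and local background were solved from the deposited fold and p (Python 3.11.15, scipy 1.17.1). With 1 scale factor per library (0.673, 0.698 and 0.657 for proliferation, 36 h and 72 h) this returned 100% of the p-values within a relative tolerance of 0.0003. On peaks simulated from known fragments it returned 100%, 100% and 99.95% of 2000. Relative depth assumes that every run of the peak caller used 1 genome size. A peak was termed detectable in another library by its fragments scaled to that library's depth and median signal, against the 95% quantile of background there. Ratio intervals are exact binomial.

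Members, windows and lists were chosen with earlier results of these data known. Regions named were the strongest and widest all-stage region of a window, each proliferation-only region, and gained regions above the median fold of a list; any other was named after its values were seen. Alternatives changed the threshold, list length, window, depth, overlap and detection settings.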

Additional observations from a re-analysis of the deposited data

How the results depend on the processing

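No paired analysis was possible because each stage has 1 library. Of the ratios, the strongest peaks of each locus and the totals over the 4 windows under the other settings, 190 values stayed within 1.5 times of the reported one and 17 moved further. Of the peak and region numbers of single loci, 139 stayed and 41 moved. Some values could move little. Scaling to the shallowest depth left each value as it was, and these values count among those that stayed. That setting could only drop called peaks and redrew no peak edges, so it says little about the effect of depth. The percent of the list below the strongest Jun peak at 72 h counted as unmoved although it fell from 80.6 to 67. None of the ratios past 1.5 times changed direction. Covered length at Fos was 2.31 to 3.10 times proliferation at 36 h and 2.98 to 4.11 times at 72 h over 7 alternatives. At Fosl1 it was 0.484 to 0.738 and 0.855 to 0.985, where the highest 36 h value came from the wider window. At Jun and Junb it was 1.06 to 1.40. The ratios of summit fragments at the pair of lowered Fosl1 regions stayed between 0.213 and 0.516.

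Windows 10 kb narrower on each side held 17, 21 and 23 peaks in the order of the stages, with 3 gained and 2 proliferation-only regions. At 72 h, 28 peaks remained with a −log10 q of at least 5, 27 with a fold of at least 5 and 27 with lists of equal number. Lists of equal number gave 9 proliferation-only regions. When peaks within 1 kb were joined, 2 gained and 0 proliferation-only regions were left. With a stricter chance of a call, the Fos region from 86796517 was lost, so that the peaks of 36 h missing in proliferation numbered 0, as did those of 72 h. With overlap as the only counterpart, 3 proliferation peaks were missing at 36 h and 3 at 72 h, 2 peaks of 72 h in proliferation and 1 at 36 h. The cause of these moves was not tested, except that narrower windows hold fewer peaks and wider joins fewer regions. Regions near the calling limit, at 18 fragments in proliferation, carry little depth.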
